A study of Mus musculus with 12 samples.

Results

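The 9 genes described here encode transporters that move organic anions, bile salts and drugs into or out of liver cells. They are the uptake carriers Slco1a1, Slco1a4, Slco1b2, Slco2b1 and Slc22a7 and the efflux pumps Abcc2, Abcc3, Abcc4 and Abcg2. They were chosen by name from 52636 genes in the count files, and all 9 of 9 were among the 12453 genes that passed the filter on low counts. Livers were taken at 16 weeks of age from 12 male C57Bl/6J mice, 6 born to mothers on a vitamin D deficient diet (VDD-F1) and 6 born to mothers on a vitamin D sufficient diet (VDS-F1). The mothers ate their diet before mating and through pregnancy, and the deficient mothers also received calcium gluconate. After delivery all mothers received the sufficient diet, and the offspring of both groups were weaned onto it, so that both groups ate the same diet as adults. RNA came from the left lateral lobe, with 1 library for each mouse. Litters are not given in the sources used here, so mice of a group may share a mother, and the p-values then measure only the spread between these mice.

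Hepatocytes take up bile salts, bilirubin, steroid conjugates, hormones and many drugs from the blood through carriers in the basolateral membrane, chiefly the organic anion transporting polypeptides (the Slco genes) and members of the Slc22 family. ATP-driven pumps of the Abc family then move the compounds or their conjugates either across the canalicular membrane into bile (Abcc2 and Abcg2) or back across the basolateral membrane into blood (Abcc3 and Abcc4). Several of these genes differ in level between male and female mouse livers, and their transcription is known to depend on nuclear receptors, hepatocyte factors and the oxidative stress factor Nrf2.

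The reads that STAR assigned to the reverse strand of annotated genes numbered 14275793 to 20815066 per library (medians 16383624 for VDD-F1, 16125660 for VDS-F1). Levels are given as CPM, a gene's reads relative to the size of the library, after TMM scaling, edgeR's correction for library composition. The diets were compared with the quasi-likelihood test of edgeR, and adjusted p-values are Benjamini-Hochberg values over all 12453 genes. The study's histology supplement gives a liver weight for 7 of the mice (VDD4, VDD5, VDD6, VDS3, VDS4, VDS5 and VDS6) and none for the other 5, and values are also given within these sets of mice. Why the weights were recorded for some mice only is not given in the sources used here. The summed level of 11 hepatocyte marker genes lay between 103344 and 123927 CPM in VDD-F1 and between 90062 and 111788 CPM in VDS-F1, with Alb, the albumin gene, at a mean of 73412 ± 5750 and 62238 ± 5244 CPM (SD, n = 6 each). Alb made up most of this sum in every mouse. Of the 11 genes 6 had log2-fold changes above 0 and 5 below, and Apoa2, an apolipoprotein gene with the smallest p of the list, was lower in VDD-F1, at 4176 ± 1016 against 5166 ± 341 CPM (SD, n = 6 each).

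The promoters of 4 members are printed because they show the contrast on which the results turn. Slco1b2, an uptake carrier, and Slco1a1 had low levels in the same 4 VDD-F1 mice, Slco1a4 lies between them in a gene cluster on chromosome 6 and was not low in those mice, and Abcc4 had its highest levels in them. Each sequence is 300 bases from RefSeq on GRCm38.p6, running 5′ to 3′ on the strand of the gene from 250 bases before its start site to 50 bases from the start on. Capitals mark every match, on either strand, to 3 motifs, namely TTCNNNGAA (the core bound by signal transducers and activators of transcription), TGACNNNGC (the core of the antioxidant response element, bound by Nrf2) and TATAAA (the TATA box). The sequences are from chr6:141629268-141629567 (plus strand), chr6:141856171-141856470 (minus strand), chr6:141946913-141947212 (minus strand) and chr14:118706170-118706469 (minus strand), in this order.
Slco1b2: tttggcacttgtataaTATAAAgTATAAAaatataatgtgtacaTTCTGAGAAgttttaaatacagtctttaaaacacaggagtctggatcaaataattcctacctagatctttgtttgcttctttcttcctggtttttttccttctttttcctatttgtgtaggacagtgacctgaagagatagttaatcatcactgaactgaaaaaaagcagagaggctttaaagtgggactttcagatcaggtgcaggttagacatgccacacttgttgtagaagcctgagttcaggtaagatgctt
Slco1a4: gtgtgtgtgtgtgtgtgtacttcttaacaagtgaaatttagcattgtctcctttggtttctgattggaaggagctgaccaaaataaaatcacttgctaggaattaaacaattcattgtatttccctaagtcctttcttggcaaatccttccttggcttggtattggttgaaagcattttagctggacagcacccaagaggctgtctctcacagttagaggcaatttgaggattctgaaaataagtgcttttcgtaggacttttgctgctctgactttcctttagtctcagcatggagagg
Slco1a1: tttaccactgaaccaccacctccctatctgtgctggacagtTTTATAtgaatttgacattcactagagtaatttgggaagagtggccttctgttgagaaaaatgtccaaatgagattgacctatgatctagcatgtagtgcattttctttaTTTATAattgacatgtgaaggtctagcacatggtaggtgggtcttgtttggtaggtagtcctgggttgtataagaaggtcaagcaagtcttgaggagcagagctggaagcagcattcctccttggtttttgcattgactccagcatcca
Abcc4: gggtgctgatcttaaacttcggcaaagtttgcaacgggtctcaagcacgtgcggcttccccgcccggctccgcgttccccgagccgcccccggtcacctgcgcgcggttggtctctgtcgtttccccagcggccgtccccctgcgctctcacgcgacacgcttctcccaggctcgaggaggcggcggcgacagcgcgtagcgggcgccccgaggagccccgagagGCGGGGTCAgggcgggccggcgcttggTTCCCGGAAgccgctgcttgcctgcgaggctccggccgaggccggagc
The Slco1b2 region held 1 match to TTCNNNGAA that begins 206 bases before the start site and 2 to TATAAA at 234 and 227 bases. The Slco1a1 region held 2 matches to TATAAA, at 209 and 99 bases before the start and both on the opposite strand, and the Slco1a4 region held 0 matches to the 3 motifs. The Abcc4 region held a match to TGACNNNGC that begins 25 bases before the start, on the opposite strand, and a match to TTCNNNGAA after the start site. RefSeq gives Abcc4 a second start inside the gene, whose region (chr14:118676882-118677181, not printed) held 1 match to TGACNNNGC, 23 bases before that start, and 0 to TTCNNNGAA. Among the members not printed, the Abcc2 region also held TGACNNNGC, 98 bases before the start. Regions 2 and 3 of Slco2b1 each held TTCNNNGAA, and regions 1 and 2 of Abcg2 each held TATAAA. Of 32851 mouse promoter regions of this length, 8.30% held TTCNNNGAA, 12.4% held TGACNNNGC and 13.6% held TATAAA. No overlap between motifs occurred in the printed regions. A match describes the letters only, and binding was not measured. RefSeq entries were found for 7 of the 9 members, and Slc22a7 and Abcc3 are named only.

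In all 12 mice, 7 of the 9 transporters had a lower mean and 2 a higher mean in VDD-F1 than in VDS-F1, and 0 of 9 passed an adjusted p of 0.05 (edgeR's quasi-likelihood test, Benjamini-Hochberg). Among all genes, 0.0402% passed. DESeq2 also called 0 of 9 at that threshold, and 4.05% of all genes. At an unadjusted p under 0.05, Slco1b2 (lower) and Abcc4 (higher) stood out, which is 2 of 9 against 15.8% of all genes in either direction (6.29% lower and 9.55% higher), and DESeq2 also gave 2. The count was 5 without VDD1 and 6 without VDD3, and the share of all genes was not counted in these fits. There 260 and 94 of all genes passed an adjusted p of 0.05 with a log2-fold change beyond 1, against 5 in 12 mice. The median log2-fold change over the 9 genes was -0.25, against 0.00413 over all genes, and 49.2% of all genes lay below 0. The VDD-F1 and VDS-F1 values overlapped for each of the 9 members, where 1.18% of all genes had no overlap. The plot of CPM by mouse shows that 4 VDD-F1 mice (VDD2, VDD4, VDD5 and VDD6) lay away from the VDS-F1 range in several panels, while VDD1 lay within it except for Abcg2 (below) and VDD3 except for Slco1a4, Slco2b1 and Abcg2 (above). The share of all genes with these 4 mice lowest or highest of the 12 was not counted. The pattern is therefore not shown to be particular to the transporters.

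**Figure D1:**
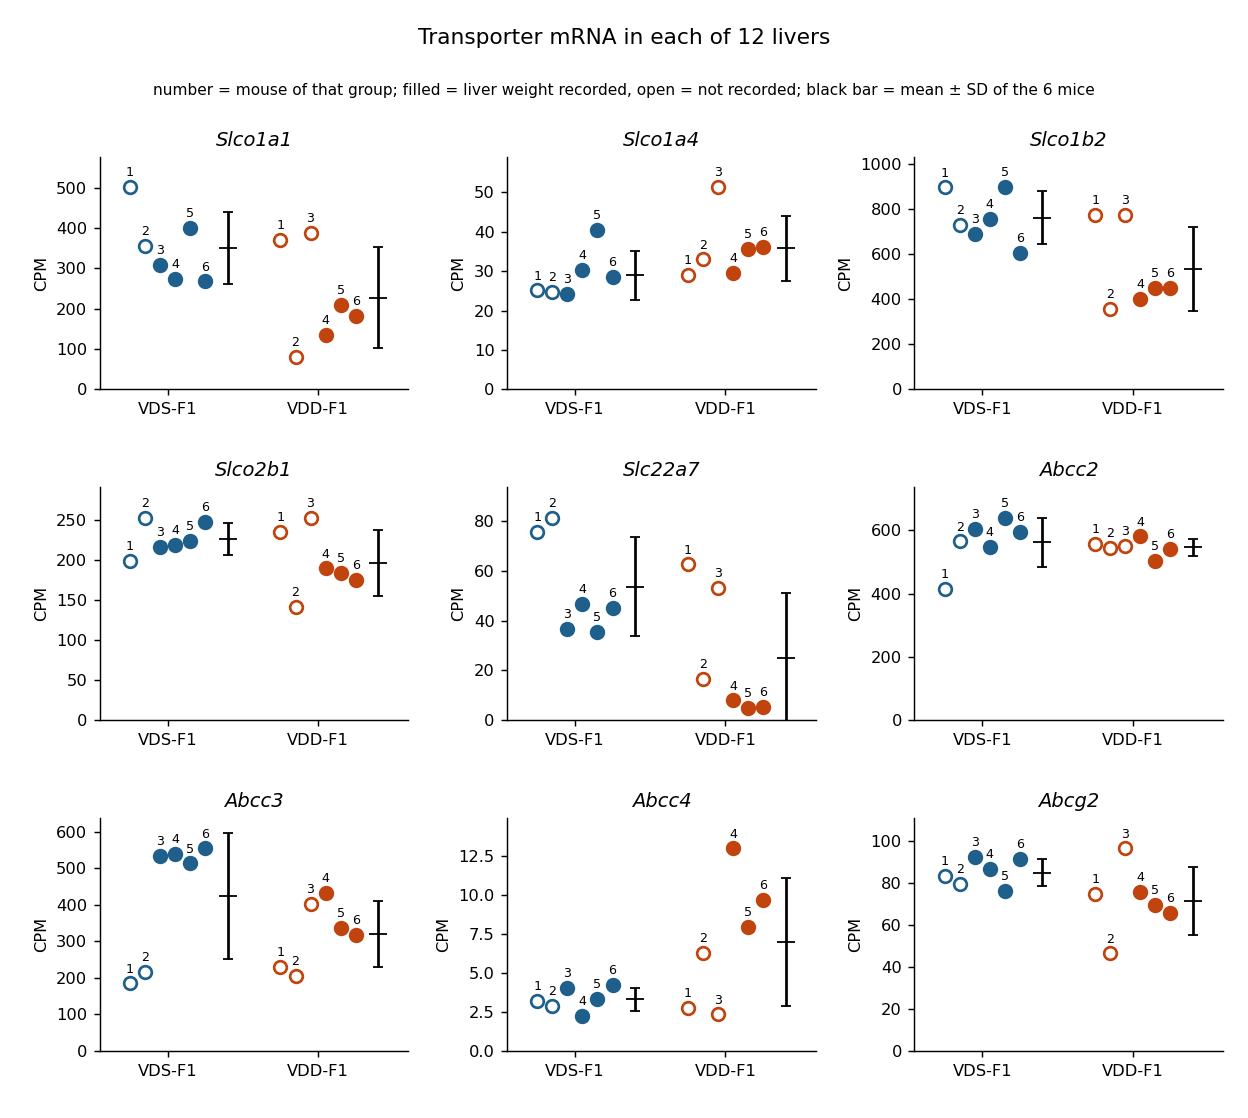
CPM (vertical axis, from 0) of the 9 transporters in each of 12 livers, 6 VDS-F1 in blue and 6 VDD-F1 in orange, with the mouse's number above its point, filled points for the 7 mice with a recorded liver weight, open points for the other 5, and black bars for the mean ± SD of 6 mice. For Slco1b2 the VDD-F1 mice 2, 4, 5 and 6 sit between 358 and 452 CPM, below the lowest VDS-F1 mouse at 607 CPM.

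Slco1b2 encodes the main liver carrier of the Oatp1b family, which takes up bilirubin conjugates, bile acids, statins and microbial toxins. Its gene lies at chr6:141629518-141686646 on the plus strand (ENSMUSG00000030236.10, 15 merged exons, GRCm38). In VDD-F1 mice 1 to 6 its level was 773, 358, 774, 401, 452 and 449 CPM. In VDS-F1 mice 1 to 6 it was 897, 731, 690, 756, 899 and 607 CPM. Thus 4 VDD-F1 mice were below every VDS-F1 mouse and VDD1 and VDD3 were in the middle of the VDS-F1 range. The mean was 534 ± 188 CPM (SD, n = 6) in VDD-F1 and 763 ± 116 CPM (SD, n = 6) in VDS-F1, a log2-fold change of -0.51 (SE 0.20, 95% interval -0.93 to -0.09). The unadjusted p was 0.0201 and the adjusted p 0.229 in edgeR's quasi-likelihood test, and an exact permutation test of the log2 CPM means gave 0.0368 (two-sided, smallest possible 0.00216). With quality weights for each library in limma's voom the adjusted p was 0.0390 and the log2-fold change -0.62.

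Slco1a1 encodes an Oatp1a carrier of bile acids and steroid sulphates that is higher in livers of male mice. It lies at chr6:141907282-141946962 on the minus strand (ENSMUSG00000041698.11). Its levels in VDD-F1 mice 1 to 6 were 371, 79.7, 388, 136, 209 and 182 CPM, and those in VDS-F1 mice 1 to 6 were 502, 355, 308, 275, 401 and 268 CPM. The same 4 VDD-F1 mice were the 4 lowest of the 12, and the lowest, VDD2, differed 4.87-fold from the highest VDD-F1 mouse. The means were 228 ± 126 and 351 ± 89.3 CPM (SD, n = 6 each), with a log2-fold change of -0.63 (SE 0.32, 95% interval -1.31 to 0.06) and an adjusted p of 0.358 in edgeR's test. The call missed the threshold at this spread, and the interval spans both a marked decrease and no change.

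Slco1a4 and Slco1a1 are neighbours of the same family, and Slco1a4 (chr6:141805440-141856199, minus strand, ENSMUSG00000030237.14), a carrier of bile salts and cardiac glycosides that is also prominent at the blood-brain barrier, behaved differently. Its levels were 29.1, 33.0, 51.4, 29.5, 35.5 and 36.04 CPM in VDD-F1 mice 1 to 6 and 25.1, 24.8, 24.3, 30.2, 40.5 and 28.6 CPM in VDS-F1 mice 1 to 6. The groups overlapped, and VDD3 was the highest of all and not one of the 4 mice with low Slco1b2. The mean was 35.7 ± 8.19 CPM in VDD-F1 and 28.9 ± 6.14 CPM in VDS-F1 (SD, n = 6 each), and the log2-fold change was 0.31 (SE 0.16, adjusted p 0.358 in edgeR's test). Of all stretches of 75 bases in its transcripts, 1.03% also occurred in other genes, mostly in Slco1a5, and 1.08% of those of Slco1a1 occurred elsewhere, mostly in Slco1a4. Reads from these stretches map to several places and are not counted, or may be credited to a neighbour, while the other 7 transporters shared 0 such stretches.

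Slco2b1 encodes a broad Oatp2b carrier of steroid sulphates and drugs found in many tissues, and lies at chr7:99657804-99711340 on the minus strand (ENSMUSG00000030737.17). Its values ranged from 142 to 253 CPM in VDD-F1 (median 187) and from 199 to 253 CPM in VDS-F1 (median 222). VDD2, VDD4, VDD5 and VDD6, at 142, 190, 185 and 175 CPM, were again the 4 lowest of the 12. The log2-fold change was small, at -0.21 (SE 0.13, adjusted p 0.455 in edgeR's test). When strand was ignored, the count of Slco2b1 was 0.726 of its reverse-strand count, and the log2-fold change was -0.19. STAR drops reads that overlap more than 1 gene, and whether this accounts for the lower count was not tested.

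Slc22a7 encodes Oat2, a basolateral carrier of organic anions such as nucleotides, glutamate and prostaglandins. It lies at chr17:46432183-46438457 on the minus strand (ENSMUSG00000067144.6). Its levels in VDD-F1 mice 1 to 6 were 62.6, 16.8, 53.0, 7.96, 5.05 and 5.22 CPM. Those in VDS-F1 mice 1 to 6 were 75.6, 81.4, 36.8, 46.9, 35.6 and 45.0 CPM. It had the widest range of the 9 transporters in VDD-F1, with the highest mouse 12.4-fold above the lowest, and the same 4 VDD-F1 mice were below every other mouse. The mean was 25.1 ± 25.9 CPM in VDD-F1 and 53.6 ± 19.9 CPM in VDS-F1 (SD, n = 6 each), and the log2-fold change was -1.10 (SE 0.57, 95% interval -2.33 to 0.12). The adjusted p was 0.370 in edgeR's test, 0.402 in DESeq2 and 0.0221 in voom with quality weights, where the log2-fold change was -2.20. The exact permutation test gave 0.0411 (unadjusted). With the mouse set as a covariate the edgeR log2-fold change was -1.93 (adjusted p 0.0513). Without VDD1 it was -1.62, and VDD1 had the highest level in its group. The levels in VDD4, VDD5 and VDD6 rest on 116, 96 and 112 reads of Slc22a7.

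Among the efflux pumps, Abcc4 encodes Mrp4, a basolateral pump of bile acids together with glutathione and of cyclic nucleotides, which is normally low in liver. It lies at chr14:118482692-118706219 on the minus strand (ENSMUSG00000032849.13). Its levels were 2.78, 6.26, 2.33, 13.0, 7.94 and 9.70 CPM in VDD-F1 mice 1 to 6 and 3.21, 2.89, 4.06, 2.24, 3.33 and 4.22 CPM in VDS-F1 mice 1 to 6. VDD2, VDD4, VDD5 and VDD6, the mice with the least Slco1b2, were the 4 highest of the 12, and VDD1 and VDD3 lay among the lowest. The mean was 6.998 ± 4.10 CPM in VDD-F1 and 3.32 ± 0.738 CPM in VDS-F1 (SD, n = 6 each), with a log2-fold change of 1.08 (SE 0.36, 95% interval 0.31 to 1.85). The unadjusted p was 0.00904 and the adjusted p 0.167 in edgeR's test. The adjusted p was 0.0563 in DESeq2 and 0.0667 in voom with quality weights, and the exact permutation test gave 0.0714. Between 31 and 208 reads of Abcc4 were counted per library.

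Abcc3 encodes Mrp3, a basolateral pump that returns glucuronides and bile acids to blood, and lies at chr11:94343295-94392997 on the minus strand (ENSMUSG00000020865.16). Its levels were 229, 205, 402, 432, 336 and 318 CPM in VDD-F1 mice 1 to 6 and 185, 217, 534, 538, 513 and 554 CPM in VDS-F1 mice 1 to 6. The 4 lowest of the 12 were VDD1, VDD2, VDS1 and VDS2, all without a recorded liver weight, and the 4 highest were the VDS-F1 mice with one. The log2-fold change between the diets was -0.40 (SE 0.28, adjusted p 0.516 in edgeR's test), and that between the mice with and without a recorded weight, adjusted for diet, was 0.85 (SE 0.22, adjusted p 0.0599).

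Abcc2 encodes Mrp2, the canalicular pump for bilirubin glucuronides and glutathione conjugates (chr19:43782192-43840740, plus strand, ENSMUSG00000025194.5). It was the steadiest member in VDD-F1, with values from 503 to 581 CPM (median 547), and its values in VDS-F1 ran from 416 to 640 CPM (median 580). The log2-fold change was -0.04 with a 95% interval of -0.26 to 0.18 (adjusted p 0.889 in edgeR's test). Abcg2 encodes Bcrp, a canalicular pump for sulphate conjugates, urate and drugs (chr6:58584523-58695676, plus strand, ENSMUSG00000029802.13). Its levels were 74.4, 46.3, 96.3, 75.4, 69.4 and 65.7 CPM in VDD-F1 mice 1 to 6 and ran from 76.1 to 92.0 CPM in VDS-F1 (median 84.8). VDD3 was the highest of the 12 mice, and the other 5 VDD-F1 mice were below every VDS-F1 mouse. The log2-fold change was -0.25 (SE 0.13, adjusted p 0.377 in edgeR's test).

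The spread among VDD-F1 mice was larger than that among VDS-F1 mice for 7 of the 9 transporters, where 60.9% of all genes had the larger SD of log2 CPM in VDD-F1. The ratio of the SD in VDD-F1 to that in VDS-F1 was 3.15 for Slc22a7, 3.15 for Abcg2, 3.01 for Abcc4, 2.50 for Slco1a1, 2.37 for Slco2b1 and 2.19 for Slco1b2, and 1.07 for Slco1a4. It was below 1 for Abcc3 (0.587) and Abcc2 (0.309). The median ratio over all genes was 1.16. No test was made of these ratios.

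The diet comparison was then made within the sets of mice. VDD4, VDD5 and VDD6, the VDD-F1 mice with a recorded weight, are all among the mice with low Slco1b2. VDD1 and VDD3, which lay mostly within the VDS-F1 range, are in the other set with VDD2. The sets thus differ in this pattern as well, and what each adds to the values below cannot be told apart. In the 7 mice with a recorded liver weight, 5 transporters fell and 1 rose in VDD-F1 at an adjusted p under 0.05, 6 of 9 in all, while 5.12% of all genes fell and 5.85% rose there. In the 5 mice without a recorded weight, 0 of 9 passed even an unadjusted p of 0.05 in edgeR's test, and 3.79% of all genes did, in a comparison of 3 VDD-F1 with 2 VDS-F1 mice. The median log2-fold change over the members was -0.31 in the first set and -0.10 in the second.

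In the mice with a recorded weight, Slc22a7 fell 6.83-fold in VDD-F1, from 41.1 ± 5.68 CPM (SD, n = 4) to 6.08 ± 1.64 CPM (SD, n = 3), with a log2-fold change of -2.77 (SE 0.18, adjusted p 4.00e-06 in edgeR's test). Slco1b2 fell from 738 ± 123 to 434 ± 29.0 CPM (log2-fold change -0.77, adjusted p 0.00257 in edgeR's test). Slco1a1 fell from 313 ± 61.2 to 175 ± 37.2 CPM (log2-fold change -0.83, adjusted p 0.00775 in edgeR's test). These are all uptake carriers of hepatocytes. Slco2b1 had a smaller fall, by 0.31 on the log2 scale (adjusted p 0.0338 in edgeR's test), and lost its call when any 1 of the 7 mice was left out, with the largest adjusted p at 0.110. Among the pumps, Abcc3 fell from 535 ± 16.9 to 362 ± 60.8 CPM (log2-fold change -0.56, adjusted p 0.00615 in edgeR's test). Abcc4 rose from 3.46 ± 0.903 to 10.2 ± 2.56 CPM (log2-fold change 1.57, adjusted p 0.00188 in edgeR's test). Slco1a4 (0.13), Abcc2 (-0.14) and Abcg2 (-0.30, adjusted p 0.0679) did not pass. Abcg2 passed in 4 of 10 alternatives, with adjusted p from 0.0216 to 0.203, and 7 of 9 transporters passed in DESeq2, in voom and with hepatocyte marker scaling. The share of all genes that passed was not counted in these alternatives. The values of the 3 VDD-F1 mice lay outside the range of the 4 VDS-F1 mice for 7 of the 9 transporters, against 23.4% of all genes. Leaving out each of the 7 mice, DESeq2, voom and scaling to hepatocyte markers kept Slco1a1, Slco1b2, Slc22a7, Abcc3 and Abcc4 past the threshold in all 10 alternatives, each chosen after these data had been seen.

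In the mice without a recorded weight, the log2-fold changes were -0.62 for Slco1a1, -0.36 for Slco1b2, -0.83 for Slc22a7 and 0.33 for Abcc4, and VDD2 was the mouse away from the rest. Abcc3 was at 0.47 and Abcc2 at 0.17, against -0.56 and -0.14 in the other set. The difference between the sets was tested as an interaction of diet and set. It had an unadjusted p of 0.00282 for Slc22a7, 0.00576 for Abcc3 and 0.0340 for Abcc4 in edgeR's test, 3 of 9 where 9.01% of all genes had one under 0.05, and 0 of 9 passed after adjustment (the lowest adjusted p was 0.259), where 0.0883% of all genes did. Without VDD2 the interaction had an unadjusted p under 0.05 for 6 of 9, and the share of all genes was not counted there. Adjusted for diet, Slc22a7 itself was lower in the mice with a recorded weight by 1.95 on the log2 scale (adjusted p 0.0177 in edgeR's test), the only member of 9 to pass, against 2.46% of all genes. What else differed between the sets is not given in the sources used here.

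**Figure D2:**
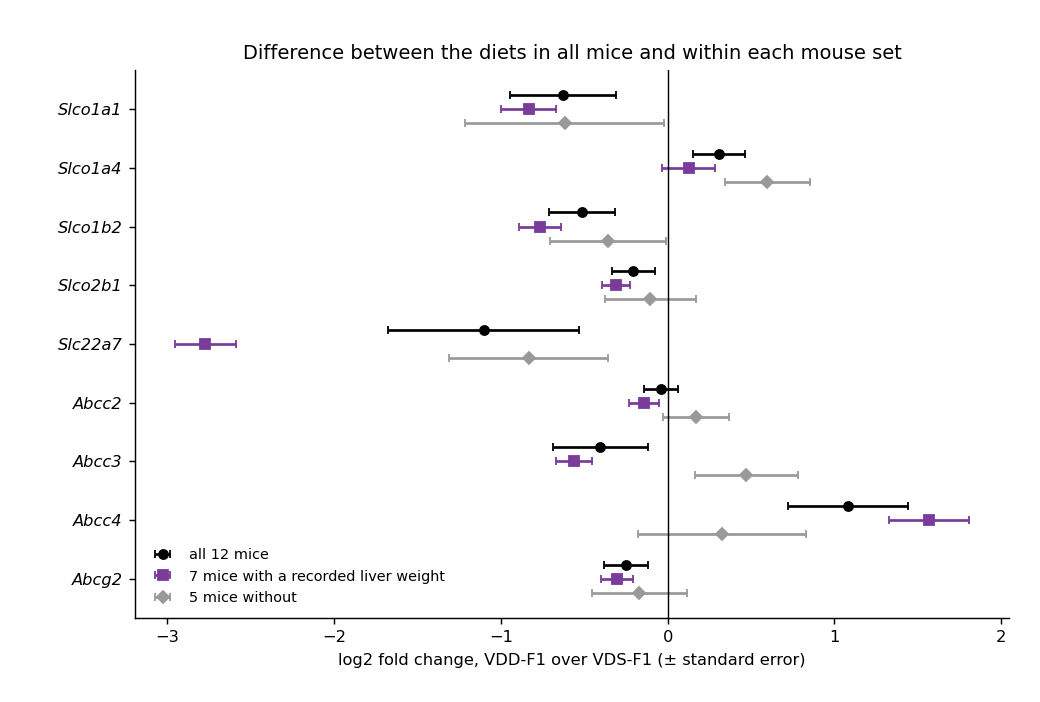
Log2-fold change of VDD-F1 over VDS-F1 (horizontal axis, with bars of ± 1 standard error) for each transporter in all 12 mice (circles), in the 7 mice with a recorded liver weight (squares) and in the 5 without (diamonds). Slc22a7 lies at -2.77 in the mice with a recorded weight and at -0.83 in the mice without.

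VDD2, VDD4, VDD5 and VDD6 formed a separate cluster for Slc22a7 and Slco1b2, and in VDD-F1 they stood apart from VDD1 and VDD3. No correlation between members is therefore given over all 12 mice or within VDD-F1, and the 36 pairs of members were compared in VDS-F1. For Slco1a1 and Slco1b2 the Pearson r in VDS-F1 was 0.838 (exact permutation p 0.0417, adjusted p 0.61) and Spearman rho was 0.771 (exact p 0.103). Without the 2 mice farthest from the median of Slco1a1, r was 0.663. The r farthest from 0 was that of Slc22a7 and Abcc3, at -0.927 (exact permutation p 0.0653, adjusted p 0.61, rho -0.429), and it was 0.77 without the 2 mice farthest from the median of Slc22a7, on which it rests. The rho farthest from 0 was that of Slco1a1 and Abcc3, at -0.943 (exact p 0.0167, adjusted p 0.6, r -0.736). None of the 36 pairs had an adjusted p under 0.05 in VDS-F1. A single pair could not have passed, since the smallest exact permutation p of r with 6 mice, 0.00139, alone gives an adjusted p of 0.05. The gene whose level followed each member most closely, after the mean of each diet was removed, was Ppp2r5c for Slco1a1 (r 0.956), Mmadhc for Slco1b2 (r 0.962), Pdzk1, a scaffold protein, for Slco2b1 (r 0.950), H2-K1, a class I histocompatibility gene, for Slc22a7 (r 0.977), Blvrb, a biliverdin reductase, for Abcc3 (r 0.954), Snupn for Slco1a4 (r 0.865), Zc3h3 for Abcc2 (r 0.928), Prag1 for Abcc4 (r 0.922) and Sdha, a subunit of succinate dehydrogenase, for Abcg2 (r 0.961). These are the highest values over genes passing the filter that have a symbol not starting with Gm or ending in Rik. They describe likeness only, over 12 mice in which the 4 VDD-F1 mice still stand apart from VDD1 and VDD3.

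Per length of exon, Slco1b2 was the most abundant member in both groups, at 155 ± 23.5 CPM per kilobase in VDS-F1 and 108 ± 38.2 in VDD-F1 (SD, n = 6 each). In VDS-F1 it was above the next member, Abcc3 (74.3 ± 30.4), in all 6 mice. Abcc3, Slco1a1 (66.6 ± 16.9) and Abcc2 (65.8 ± 9.20) did not differ beyond their spread. Slco2b1 (38.0 ± 3.37) and Slc22a7 (25.5 ± 9.47) overlapped, and Abcg2 (10.4 ± 0.783), Slco1a4 (4.51 ± 0.958) and Abcc4 (0.520 ± 0.115) followed in steps that did not overlap. In VDD-F1 the order was the same except that Abcc2 (64.0 ± 2.98) stood above Abcc3 (56.2 ± 15.9) and Slco1a1 (43.1 ± 23.9), with overlapping ranges. Slc22a7 was at 11.9 ± 12.3 CPM per kilobase on average in VDD-F1, a range that overlapped Abcg2 at 8.74 ± 1.98, and Abcc4 was at 1.10 ± 0.642.

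**Figure D3:**
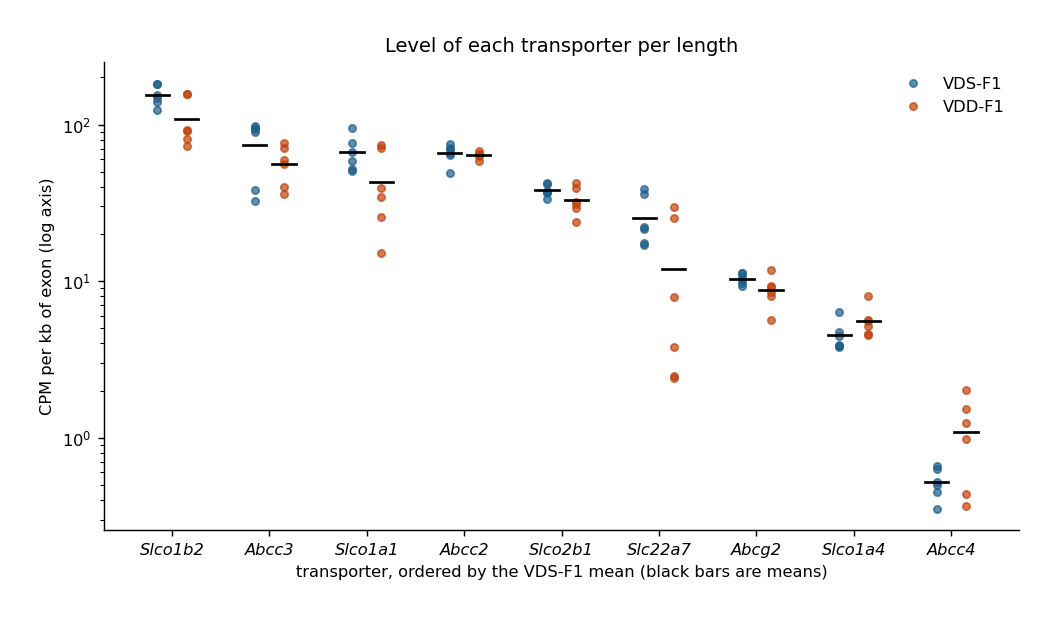
CPM per kilobase of exon (vertical log axis) of the 9 transporters, ordered by their VDS-F1 mean, with 1 point per mouse for VDS-F1 (blue) and VDD-F1 (orange) and black bars for the means. Slco1b2 is the highest in both groups and Abcc4 the lowest.

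Other genes of transport were counted from lists, and the counts at an unadjusted p under 0.05 stand against 9.55% of all genes higher and 6.29% lower. Of 21 other uptake transporters 14 passed the filter, with 1 higher at an unadjusted p under 0.05 and 0 lower, and a median log2-fold change of -0.11. The sodium-dependent bile salt carrier Slc10a1 (Ntcp) had 405 CPM in VDD-F1 and 605 CPM in VDS-F1 on average (log2-fold change -0.58, adjusted p 0.358), and VDD2, VDD4, VDD5 and VDD6 were again the 4 lowest. In the mice with a recorded weight 3 of the 14 fell and 1 rose at an adjusted p under 0.05 (5.12% and 5.85% of all genes), with a median log2-fold change of 0.0655. There Slc10a1 fell by 1.05 on the log2 scale (adjusted p 1.1e-05 in edgeR's test), and Slc10a2, the apical bile salt carrier, rose by 1.22 (adjusted p 0.00339 in edgeR's test). Of 16 other efflux transporters 13 passed the filter, 4 of them higher (Abcg5, Abcg8, Abcc1 and Abcb1a) and 1 lower (Abcb11, the bile salt export pump) at an unadjusted p under 0.05, and 0 after adjustment. Abcg5 and Abcg8, the partner subunits of the sterol exporter, were higher by 0.93 (adjusted p 0.0969) and 0.71 (adjusted p 0.1003) in edgeR's test, and Abcb11 was lower by 0.25 (adjusted p 0.256). Among 6 membrane scaffolds of transporters, Slc9a3r1 was lower (log2-fold change -0.28) and Msn higher (0.43) at an unadjusted p under 0.05. All 14 transcriptional regulators that passed the filter had log2-fold changes below 0 (median -0.23), 3 of them at an unadjusted p under 0.05, where 6.29% of all genes were lower at that threshold. They include Hnf4a (-0.29), a hepatocyte factor, and Nr1i3 (-0.83), the receptor Car. In the mice with a recorded weight 7 of the 14 fell at an adjusted p under 0.05 in edgeR's test, against 5.12% of all genes, with Nr1i3 at -1.68 (adjusted p 7.61e-05). In the mice without a recorded weight the median of the 14 was -0.0215, with Nr1i3 at -0.08 and Hnf4a at 0.07. The adjusted p of all of these in the 12 mice was above 0.05.

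Of 10 targets of Nrf2, the factor that also drives Abcc pumps, 9 were above 0 and 1, Srxn1, which encodes sulfiredoxin, was higher at an unadjusted p under 0.05 (log2-fold change 0.65, adjusted p 0.109 in edgeR's test), a share near the 9.55% of all genes that were higher. Of 8 targets of Car and Pxr, Gstm3 was higher (1.37) and the conjugating enzyme Ugt1a1 (-0.72) and Aldh1a1 (-0.65) lower at that threshold, which 6.29% of all genes were. Of 10 genes higher in male liver, to which Slco1a1 belongs by its known sex difference, 4 were lower at an unadjusted p under 0.05, against the same 6.29%, namely Cyp7b1 (-1.68), Hsd3b5 (-1.73), Nudt7 (-0.56) and Cyp2d9 (-0.99). Hsd3b5 and Cyp2d9 were lowest in VDD2, VDD4, VDD5 and VDD6, but Hsd3b5 was below every VDS-F1 mouse in VDD1 and VDD3 too. The 4 lowest for Cyp7b1 were VDD1, VDD2, VDD5 and VDD6. Nudt7 was lower in VDD1 and VDD3 (249 and 244 CPM) than in VDD4, VDD5 and VDD6 (276, 367 and 313 CPM). In the mice with a recorded weight 4 of the 10 fell and 1 rose at an adjusted p under 0.05 in edgeR's test, against 5.12% and 5.85% of all genes. Of 12 genes higher in female liver, 2 passed the filter, and Cyp2a4 was at 25.2 CPM or more in VDD2, VDD4, VDD5 and VDD6 and at 0.416 CPM or less in the other 8. The other, Cyp17a1, a steroid hydroxylase, was at 62.2 and 58.1 CPM in VDD1 and VDD3, at 14.9 to 22.5 CPM in the 4 mice and at 1.86 to 46.1 CPM in VDS-F1. The summed level of the 12 genes was 45.7 to 64.9 CPM in VDD-F1 and 3.92 to 46.8 CPM in VDS-F1, and in VDD1 and VDD3 nearly all of it was Cyp17a1. The heat map of members and 6 of these related genes shows each mouse in a column.

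**Figure D4:**
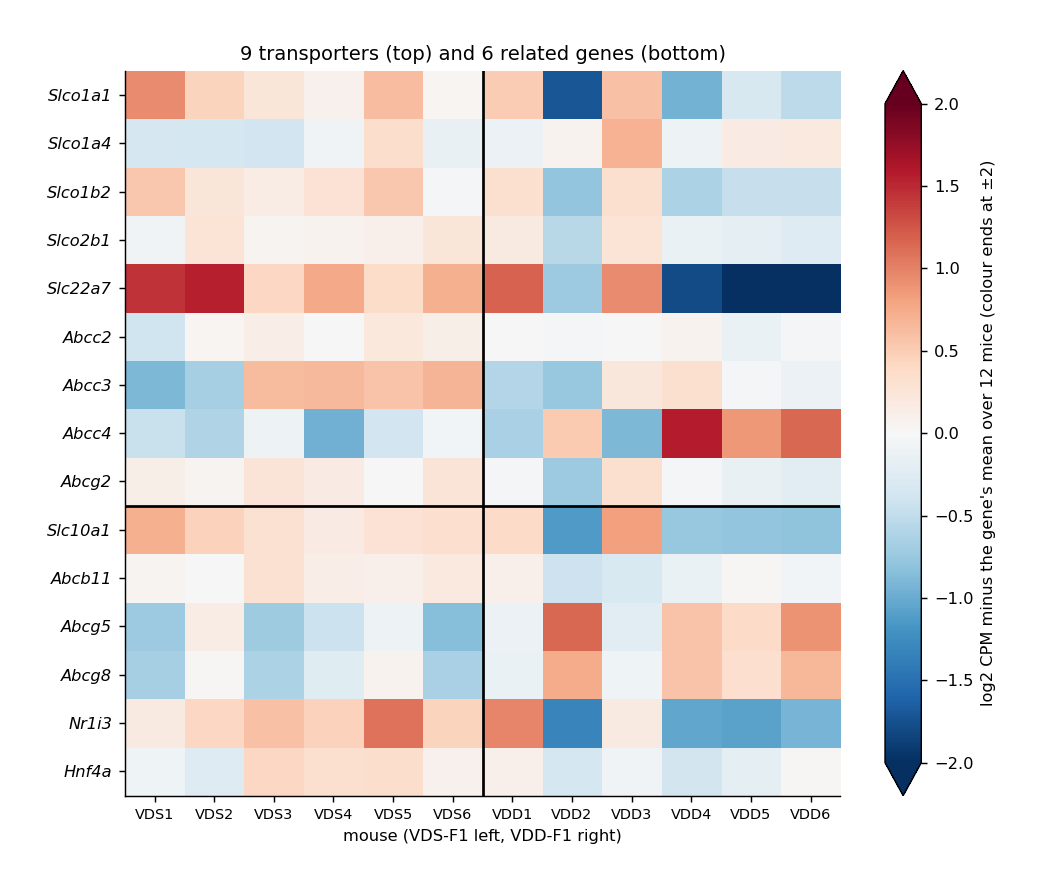
Log2 CPM minus the gene's mean over 12 mice (colour, red above and blue below the mean, ends at ± 2) for the 9 transporters (above the line) and 6 related genes (below it) in the 6 VDS-F1 and 6 VDD-F1 mice. Slco1a1, Slco1b2, Slc22a7, Slc10a1 and Nr1i3 are blue and Abcc4, Abcg5 and Abcg8 are red in VDD2, VDD4, VDD5 and VDD6.

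Markers of other liver cells moved in part with these mice. The summed level of 8 stellate cell markers was 903, 590, 519 and 484 CPM in VDD2, VDD4, VDD5 and VDD6, 298 and 456 in VDD1 and VDD3, and 282 to 450 CPM in VDS-F1, with 4 of 8 genes higher at an unadjusted p under 0.05, against 9.55% of all genes. The summed level of 8 cholangiocyte markers was 118, 72.8, 66.5 and 59.4 CPM in the same 4 mice and 23.9 to 52.1 CPM in the other 8, with 4 of the 6 genes that passed the filter higher at that threshold and 2 below the filter. Their part in the transporter result was not tested. In bulk tissue, fewer cells of a type and less RNA per cell cannot be told apart. The summed hepatocyte markers were at 103842 to 117835 CPM in the 4 mice, above or within the range of VDS-F1, a sum that is mostly Alb. Apoa2 was at 2974 to 4099 CPM in these 4 mice and at 4556 to 5550 CPM in VDS-F1. Scaling to the hepatocyte markers gave log2-fold changes of -0.53 for Slco1b2, -0.65 for Slco1a1 and 1.05 for Abcc4 in all 12 mice. Endothelial markers (1 higher and 2 lower of 8), Kupffer cell markers (1 higher and 2 lower of 8), lymphocyte markers (0 of 3) and erythroid markers (0 of 7) are counted at an unadjusted p under 0.05, where 9.55% of all genes were higher and 6.29% lower, and no marker gene passed the adjusted threshold in all 12 mice. In the mice with a recorded weight, where 6 of 9 transporters were called, markers also passed an adjusted p of 0.05 in edgeR's test. There 5 of 8 stellate cell markers were higher, with Col3a1, a fibrillar collagen gene, at a log2-fold change of 2.16, and 2 of 6 cholangiocyte markers were higher. Of 8 Kupffer cell and macrophage markers 1 was higher and 4 were lower, of 11 hepatocyte markers 2 were higher (Alb and Ahsg) and 1 lower (Apoa2, log2-fold change -0.48), of 8 endothelial markers 1 was lower, of 7 erythroid markers 1 was higher, and 0 of 3 lymphocyte markers passed. Of all genes, 5.85% were higher and 5.12% lower there.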

How the data were processed

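After trimming, the authors mapped the reads with STAR to mm10 (GRCm38) with GENCODE M15 annotation, and for each of 12 libraries they deposited unnormalized counts per gene. The STAR version and the strand column used are not given in the sources used here. The reverse-strand count was used, whose total exceeded the forward-strand total in all 12 libraries. Rows that name no gene were left out, and the unmapped share was 23.5% to 37.9% of fragments. IDs were matched without version to GENCODE M21 (52489 of 52636).

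Genes whose count averaged 12 or more were kept and tested with edgeR 4.0.16 in R 4.3.3 (TMM, quasi-likelihood test in the legacy form, Benjamini-Hochberg adjustment over all genes), with DESeq2 1.42.0 and limma 3.58.1 as alternatives. Exact permutation tests covered all 924 splits of the 12 mice. Python 3.11.15 was used for the rest. The methods were tested on simulated data. The members and lists were chosen with earlier results of these data known. From each list the text gives its counts and names the genes with the smallest p or, for transporters, the highest level per length; the 6 genes drawn beside the members were picked after their values were seen. Some genes counted in the lists are not reported here by name. Of the marker names, Tf and Ahsp were not matched. Libraries of a group differed beyond sampling noise, so none was counted as a repeat.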

Additional observations from a re-analysis of the deposited data

Results flagged for a closer look

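In 18 groups of 6 mice (9 transporters in each diet), the mouse at either end was compared with its nearest neighbour. Slco1a4 stood out in both diets. In VDD-F1, VDD3 was at 51.4 CPM, while the other 5 mice lay between 29.1 and 36.04 CPM. In VDS-F1, VDS5 was at 40.5 CPM, while the other 5 lay between 24.3 and 30.2 CPM. Chance alone marks about 1 in 20 such groups. Without VDD3 the log2-fold change of Slco1a4 was 0.18, and without VDS5 it was 0.43, against 0.31 in all 12 mice.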

How the results depend on the processing

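The direction of each transporter's log2-fold change held in all 24 alternatives for 7 of the 9 genes. Abcc2 (0.17) and Abcc3 (0.47) changed sign when only the mice lacking a recorded weight were used, and the cause was not tested. The number of transporters with an unadjusted p under 0.05 was 2, and it was 6 in voom, 4 with hepatocyte marker scaling, 4 without the low-count filter, 4 with the mouse set as a covariate, 7 in the mice with and 0 in the mice without a recorded weight, and 2 to 6 with each mouse left out (5 without VDD1 and 6 without VDD3). The number of DEGs among all genes (adjusted p under 0.05 and a log2-fold change beyond 1) was 5 in edgeR, 253 in DESeq2, 252 in voom, 17 in edgeR's newer form, 70 without the filter, 21 with the set as a covariate, 536 in the mice with and 0 in the mice without a recorded weight, and 0 to 260 with each mouse left out (260 without VDD1). The number of transporters with an unadjusted p under 0.05 for the interaction of diet and set was 3, and 2 to 6 with each mouse left out (6 without VDD2). Among the mice with a recorded weight, the number of transporters with an adjusted p under 0.05 was 6, and 5 to 6 with each mouse left out. The matching shares of all genes were not counted in voom, with hepatocyte marker scaling, with a covariate or with a mouse left out. With the replicate number as a block, 17 DEGs and 6 transporters (unadjusted p under 0.05) were called. The correlation of deviations for mice with the same number ran from -0.0762 to 0.103. Mice with unlike numbers were not compared, so whether the numbers pair the mice is not settled. In both diets mice 1 and 2 had no recorded weight and mice 4, 5 and 6 had one, so the block also holds part of the mouse set. Depth limits Abcc4, at 31 to 208 reads, and Slc22a7 in VDD4, VDD5 and VDD6, at 96 to 116 reads.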
